A study of Mus musculus with 6 samples.

Results

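The 10 genes described here encode transcription factors and cofactors of blood stem cells: Tal1, Lmo2, Gata2, Erg, Fli1, Runx1, Gfi1b, Meis1, Hlf and Mllt3. Members were all measuring probes whose gene name in the array files was one of these symbols, which gave 13 of the 55681 probes, each spotted once, for 10 of the 34797 names on the array. Erg, Runx1 and Mllt3 had 2 probes each. All 13 were among the 44642 probes kept for testing, those well above background on every array of at least 1 of the 4 combinations of genotype and population. RNA came from multipotent progenitors (MPPs) and haematopoietic stem cells (HSCs), sorted by FACS from Bmi1 knockout (KO) and wild-type (WT) C57BL6 mice of 2 to 3 months. Each of 6 two-colour Agilent arrays (3 MPP, 3 HSC) set KO RNA in red (Cy5) against WT RNA in green (Cy3), and the replicates are labelled biological. The labels say neither which part of Bmi1 the KO lacks nor how many animals gave each sample.

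Stem cells are kept undifferentiated by a small set of DNA-binding proteins that occupy many of the same regulatory regions. Tal1 binds DNA with an E protein and is joined to Gata2 by the bridging protein Lmo2, and in blood progenitors Erg, Fli1 and Runx1 bind near them. Meis1 and Hlf are linked to stem cell maintenance and, when misexpressed, to leukaemia. Mllt3 reads acylated histones and works with the methyltransferase Dot1l and with elongation factors. Bmi1 is a subunit of Polycomb repressive complex 1, which silences developmental and cell cycle genes.

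The sequences below identify the probes on which the results turn. Each is the first 30 bases of a probe of 60, in the direction of the gene, in lower case throughout because no base is singled out. The downstream Mllt3 probe (A_55_P2157048) lies at chr4:87418870-87418929 on the minus strand of mm9 and the upstream one (A_55_P2157038) at chr4:87480793-87480852. They are 61923 bp apart, and the files tie the downstream probe to a RefSeq transcript and the upstream probe to an Ensembl transcript. The Gata2 probe lies at chr6:88156362-88156421 and the Tal1 probe at chr4:114744219-114744278, both on the plus strand, and the Fli1 probe at chr9:32229857-32229916 on the minus strand. Exon and UTR positions were not annotated here.
Mllt3, downstream probe: gcagccagtgtggtactcatttcttcttaa
Mllt3, upstream probe: ttcttgaaggtggacacattacatctggta
Gata2: aactgcataagcttaacccgctgatgagtg
Tal1: acagcctataggccaacactgcgggcgtgt
Fli1: ttttcaggtaatcgtgactttttaaacgat

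Median spot signals were 379 to 581 in red and 124 to 206 in green, and the share of spots well above background was 78.8% to 83.9% in red, against 72.5% to 82.2% in green. Across probes, log2 ratios of replicate arrays correlated with r of -0.01 to 0.20 among MPP arrays and -0.07 to 0.08 among HSC arrays. The labels were not borne out by the Bmi1 probes: the ratio was below 0 on 4 of 6 arrays for A_55_P2170335 and on 2 of 6 for A_52_P39157, and whether either lies in the deleted part is not given. KO below means RNA so labelled. No array had its dyes exchanged, so in a KO/WT ratio a dye effect specific to a probe cannot be told apart from genotype. It cancels in comparisons of the populations within 1 dye. MPP arrays 2 and 3 lay in the second row of the slide and the other arrays in the first. In sorted bulk RNA, fewer cells of a type and less RNA per cell cannot be told apart.

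Between the populations, signals of the downstream Mllt3 probe and of Gata2 were lower on every MPP array than on every HSC array, in both genotype channels. The mean difference was 7.69-fold for this Mllt3 probe and 3.58-fold for Gata2 in the KO channel, and 4.98-fold and 2.84-fold in the WT channel. The upstream Mllt3 and Gfi1b probes were above background on all 3 arrays in HSCs alone (Gfi1b in the WT channel alone) and were kept for testing through them. Erg, Fli1, Runx1 and Gfi1b overlapped between the populations. Levels are log2 signals, background-corrected and quantile-normalized within a dye, so they are set neither against the other dye nor against another probe. In the KO channel 1 of the 13 probes passed the test (limma, Benjamini-Hochberg adjusted p under 0.05 over all kept probes), the downstream Mllt3 probe, against 0.352% of all probes in either direction and 0.0627% in the lower direction. In the WT channel 0 of 13 passed, against 0.282% of all probes, and 4 of 13 were lower at an unadjusted p under 0.05. That looser threshold was met in the lower direction by 4 of 13 in the KO channel too, the upstream Mllt3 probe being 1 of the 4 in each channel. The background was 5.36% of all probes in the KO channel and 7.65% in the WT channel.

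The downstream Mllt3 probe had KO levels of 11.04, 10.87 and 11.76 in MPPs 1, 2 and 3, against 13.97, 14.67 and 13.86 in HSCs 1, 2 and 3. Its WT levels were 9.81, 9.18 and 10.44 in MPPs, against 12.32, 11.36 and 12.69 in HSCs. No MPP array reached the lowest HSC array in either channel. The difference in the KO channel was -2.94 ± 0.36 (SE of the limma fit, 3 arrays each), 7.69-fold lower in MPPs, with an adjusted p of 0.0444. In the WT channel it was -2.32 ± 0.48, 4.98-fold lower, with an adjusted p of 0.170. The KO-channel call was lost when any 1 of the 6 arrays was left out, with adjusted p from 0.0711 to 0.171 and differences from -3.20 to -2.68. With the row of the slide as a block the difference was -3.13. Since the second row held only MPP arrays 2 and 3, this sets MPP array 1 alone against the HSC arrays.

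The upstream Mllt3 probe was fainter. In MPPs it was well above background on 2 of 3 KO and 1 of 3 WT arrays, so its MPP levels are near the limit of measurement, and since it was kept through its HSC arrays its differences are a description only. Its KO levels were 7.79, 6.93 and 8.09 in MPPs, against 10.35, 10.50 and 9.02 in HSCs, and its WT levels were 6.90, 6.13 and 6.06 in MPPs, against 8.85, 8.76 and 10.62 in HSCs. The MPP and HSC arrays did not overlap in either channel. The differences were -2.36 ± 0.51 in the KO channel and -3.04 ± 0.57 in the WT channel, and with the Agilent processed signal they were -3.48 and -5.99, so their size depended on the background correction and scaling.

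Gata2, the zinc finger factor required for stem cell survival, showed the next largest difference. Its KO levels were 11.38, 11.13 and 11.33 in MPPs, against 12.59, 13.28 and 13.47 in HSCs. Its WT levels were 10.11, 10.60 and 10.77 in MPPs, against 12.08, 11.61 and 12.30 in HSCs. All MPP arrays lay below all HSC arrays, and all were well above background. The difference was -1.84 ± 0.31 in the KO channel (limma, adjusted p = 0.0972) and -1.50 ± 0.31 in the WT channel (adjusted p = 0.168). Both missed the threshold. Leaving out 1 array gave differences from -2.15 to -1.66 in the KO channel and from -1.71 to -1.32 in the WT channel.

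**Figure D1:**
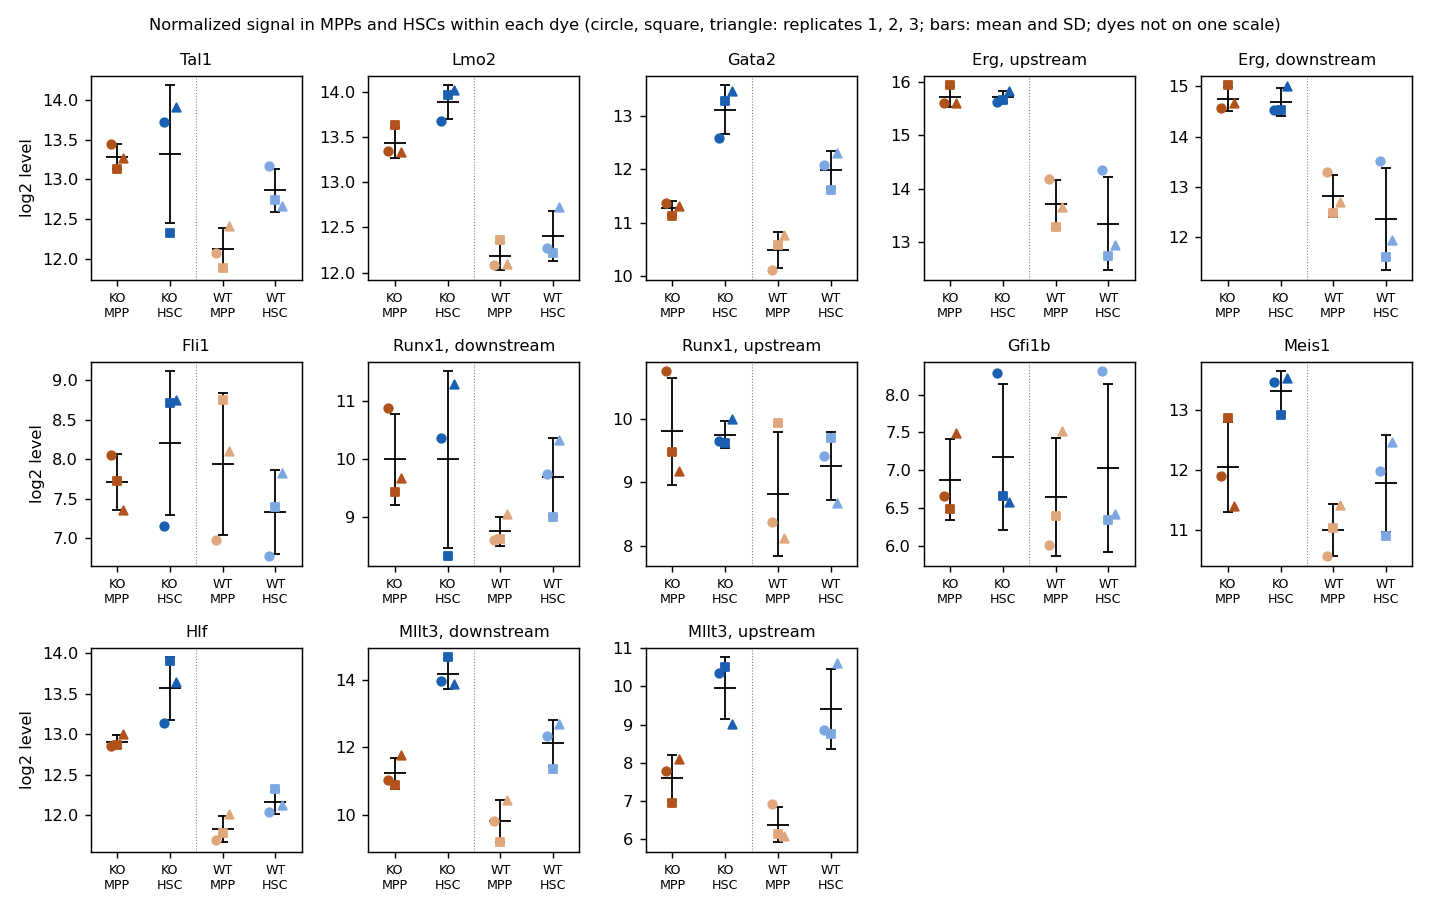
Log2 levels (vertical axis, one scale per panel) of the 13 probes, with KO MPP, KO HSC, WT MPP and WT HSC arrays from left to right; symbols are replicates and bars mean and SD of 3 arrays. MPP arrays lie below all HSC arrays in both dyes for Gata2, both Mllt3 probes and Hlf.

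Meis1 and Hlf, both regulators of stem cell quiescence and self-renewal, had smaller differences. Meis1 had KO levels of 11.89, 12.86 and 11.40 in MPPs, against 13.48, 12.93 and 13.54 in HSCs, with MPP array 2 just under the lowest HSC array. The difference was -1.26 ± 0.43 (limma, adjusted p = 0.352) in the KO channel and -0.78 ± 0.47 (adjusted p = 0.486) in the WT channel, where the arrays overlapped. Hlf had KO levels of 12.86, 12.87 and 13.00 in MPPs, against 13.14, 13.90 and 13.65 in HSCs, and WT levels of 11.69, 11.77 and 12.01 in MPPs, against 12.04, 12.32 and 12.12 in HSCs. Its arrays did not overlap in either channel, yet the differences were only -0.66 ± 0.29 (adjusted p = 0.442) and -0.33 ± 0.23 (adjusted p = 0.541).

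Lmo2 and Tal1 each separated the populations in 1 channel. Lmo2, the bridge between Tal1 and Gata2, had KO levels of 13.35, 13.64 and 13.34 in MPPs, against 13.68, 13.97 and 14.03 in HSCs, a difference of -0.45 ± 0.25 (limma, adjusted p = 0.531). In the WT channel Lmo2 overlapped between populations, at -0.23 ± 0.26. For Tal1 the difference was -0.04 ± 0.45 in the KO channel, where HSC array 2 was low at 12.33 against 13.72 and 13.91 on the other HSC arrays. In the WT channel Tal1 was at 12.07, 11.89 and 12.42 in MPPs, against 13.17, 12.74 and 12.67 in HSCs, a difference of -0.74 ± 0.27 with no overlap (adjusted p = 0.325). For the other 6 probes neither channel separated MPPs from HSCs. Their KO-channel differences ran from -0.49 (Fli1) to 0.07 (downstream Erg probe) and their WT-channel differences from -0.94 (downstream Runx1 probe) to 0.61 (Fli1).

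By count, MPP arrays lay wholly below HSC arrays for 6 of 13 probes in the KO channel (10.6% of all probes did) and 5 of 13 in the WT channel (12.9%). Gata2, Hlf and both Mllt3 probes were in both counts. The upstream Mllt3 probe, kept through HSCs, adds 1 to each. No member probe lay wholly above. The median difference of the 13 was -0.45 in the KO channel and -0.44 in the WT channel, and the median of all probes was -0.08 in each.

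**Figure D2:**
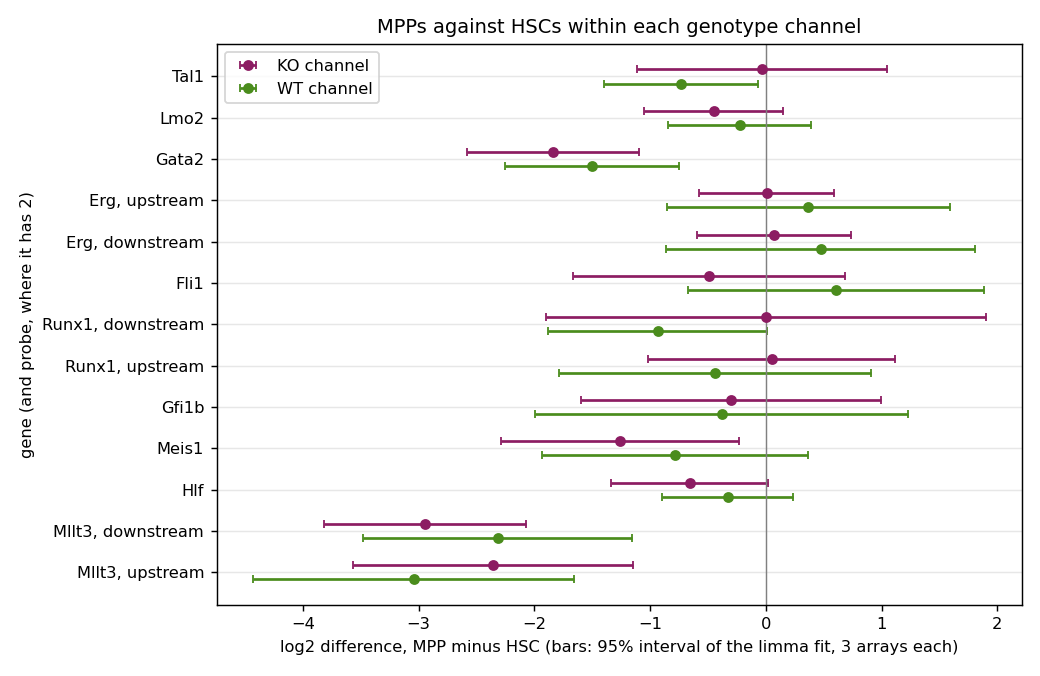
Log2 difference between MPPs and HSCs (horizontal axis) for each probe in the KO channel (purple) and the WT channel (green), with the 95% interval of the limma fit on 3 arrays per population. The intervals of Gata2 and of both Mllt3 probes lie below 0 in both channels, and those of both Erg probes span 0. The upstream Mllt3 probe was kept through its HSC arrays, so its intervals are a description only.

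Marker lists were summed on the same arrays. The log2 summed level of 11 HSC markers was 15.1 to 15.2 in MPPs against 16.4 to 16.7 in HSCs in the KO channel, and 14.0 to 14.2 against 14.5 to 15.2 in the WT channel. That of 5 MPP markers, which include Flt3 and Dntt, was 16.4 to 16.6 in MPPs against 13.8 to 14.4 in HSCs in the KO channel, and 15.2 to 15.3 against 12.8 to 13.5 in the WT channel. Both sums thus ran as the sort labels say. Gene by gene, 7 HSC markers were lower and 4 higher in MPPs in the KO channel, and 10 lower and 1 higher in the WT channel. All 5 MPP markers were higher in MPPs in both channels. Megakaryocyte markers, which share regulators with Gata2 and Tal1, summed to 13.7 to 14.1 in MPPs against 14.7 to 15.6 in HSCs in the KO channel, and to 12.1 to 12.7 against 13.6 to 14.0 in the WT channel. Basophil and mast cell markers, whose lineage also uses Gata2, varied from 14.6 to 16.7 in MPPs against 10.1 to 17.2 in HSCs in the KO channel, and from 14.1 to 16.1 against 9.45 to 13.4 in the WT channel. B lineage markers were at 14.9 to 17.6 in MPPs against 12.9 to 14.3 in HSCs in the KO channel, and at 12.1 to 12.5 against 11.6 to 12.3 in the WT channel. Neutrophil markers were at 16.4 to 17.2 in MPPs against 13.0 to 16.3 in HSCs in the KO channel, and at 14.8 to 16.0 against 10.8 to 15.1 in the WT channel. T and NK markers were at 13.3 to 13.9 in MPPs against 11.8 to 13.1 in HSCs in the KO channel, and at 12.7 to 13.2 against 11.3 to 12.2 in the WT channel, without overlap in either. Erythroid markers overlapped, with highest sums of 16.1 in MPPs against 15.5 in HSCs in the KO channel, and 13.2 against 15.0 in the WT channel. The 6 endothelial markers overlapped too, at 14.7 to 14.9 in MPPs against 14.9 to 15.5 in HSCs in the KO channel, and at 13.6 to 14.3 against 13.7 to 14.4 in the WT channel. Of these 6, Cdh5 was not well above background on any array, and the other 5 were measured. Their part in the members' differences was not tested.

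The KO/WT comparison asks whether loss of Bmi1 changed the expression of these factors. In MPPs 0 of 13 probes passed limma's adjusted threshold, and in HSCs 0 of 13 passed. All-probe calls in those comparisons were 0% and 0%. At an unadjusted p under 0.05, 1 of 13 was lower in KO MPPs (2.61% of all probes) and 1 of 13 in KO HSCs (3.42%). A separate-channel limma model, fitted to both dyes at once, also called 0 in each. The 11 HSC markers had median KO/WT ratios of -0.19 in MPPs and -0.33 in HSCs, with 0 passing. For the 5 MPP markers the medians were -0.43 in MPPs, with 4 of 5 below 0, and 0.06 in HSCs, with 2 of 5 below 0, and 0 passed. The 10 B lineage markers had medians of 3.22 in MPPs and 0.14 in HSCs. In MPPs 8 of them were higher in KO at an unadjusted p under 0.05 (2.42% over 1 probe per name) and 0 passed. Basophil and mast cell markers had medians of -0.74 in MPPs and 0.73 in HSCs. Endothelial markers had medians of -0.42 in MPPs, with 5 of 5 below 0, and -0.41 in HSCs, with 4 of 5 below 0, and 0 passed. In MPPs the medians were -0.29 for T and NK, -0.22 for megakaryocyte, 0.40 for neutrophil and -0.32 for erythroid markers, and in HSCs -0.21, -0.30, 0.47 and 0.17, with 0 passing. The part of these cell types in the members' ratios was not tested.

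Fli1, an ETS factor of stem cells, megakaryocytes and vessels, was the probe in MPPs. Its log2 KO/WT ratio was -0.10, -2.55 and -2.08 on MPP arrays 1, 2 and 3, and -0.67, 0.01 and -0.29 on HSC arrays 1, 2 and 3. Both very low ratios came from the second row of the slide. The mean was -1.57 ± 0.48 in MPPs (limma, adjusted p = 0.992), 2.98-fold lower in KO, and -0.32 ± 0.48 in HSCs. Without MPP array 1 the MPP mean was -2.31, without array 2 it was -1.09, and with the Agilent processed signal -2.21. Levels on MPP arrays 1, 2 and 3 were 8.05, 7.73 and 7.35 in the KO channel, and 6.97, 8.75 and 8.10 in the WT channel. On arrays 2 and 3 the WT signal thus lay above that of array 1 by more than the KO signal lay below it. The difference of the KO effects, MPP minus HSC, was -1.26 ± 0.68 (limma, adjusted p = 0.968). With the row of the slide as a block it was 0.21, which only sets MPP array 1 against the HSC arrays. Whether the row played a part was not tested.

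Tal1, the basic helix-loop-helix factor needed to form blood, was the probe in HSCs. Its ratio was -0.09, -0.30 and -0.76 on MPP arrays 1, 2 and 3, and -1.05, -1.79 and -0.34 on HSC arrays 1, 2 and 3. It was the member that was lower in KO on all 6 arrays, as were 3.21% of all probes. The mean was -0.38 ± 0.33 in MPPs and -1.06 ± 0.33 in HSCs (limma, adjusted p = 0.673), which is 2.08-fold lower in KO HSCs. Over both populations it was -0.72 ± 0.24 (adjusted p = 0.622). With median centring of each array instead of loess, the mean was 0.01 in MPPs and -0.44 in HSCs.

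Gata2 had ratios of -0.06, -0.98 and -0.90 in MPPs and -0.83, 0.25 and -0.35 in HSCs, with means of -0.65 ± 0.32 and -0.31 ± 0.32. Lmo2 stayed close to 0, from -0.34 to -0.19 in MPPs and from -0.30 to 0.24 in HSCs. Hlf likewise ran from -0.56 to -0.23 in MPPs and from -0.32 to 0.08 in HSCs. For Lmo2 and Hlf the 95% intervals of the mean ratio in MPPs were -0.84 to 0.26 and -0.96 to 0.13. A 2-fold lower ratio (-1 on this scale) lay outside both, for Hlf only just. The intervals cover neither a dye effect specific to a probe nor the choice of scaling, so they do not exclude such an effect of genotype. With median centring the means were 0.12 for Lmo2 and -0.07 for Hlf. Gfi1b, a repressor that restrains stem cell cycling, had ratios of 0.15, -0.37 and -1.24 in MPPs and -1.26, -0.28 and -0.39 in HSCs. It was well above background on 2 of 3 KO and 2 of 3 WT arrays in MPPs and on 1 of 3 KO and 3 of 3 WT arrays in HSCs. Meis1 had 0.02, 0.36 and -1.52 in MPPs and 0.02, 0.66 and -0.47 in HSCs, so array 3 was the low one in both.

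**Figure D3:**
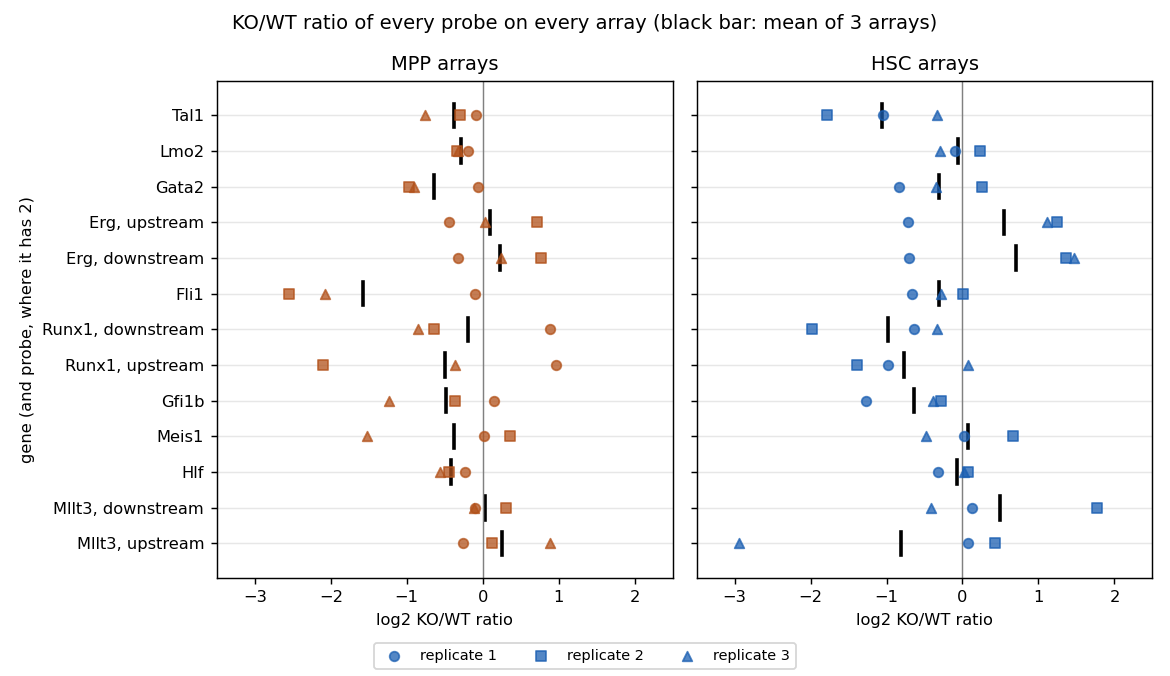
Log2 KO/WT ratio (horizontal axis) of each probe on the 3 MPP arrays (left) and 3 HSC arrays (right), with symbols for replicates and a black bar for the mean. Tal1 lies left of 0 on all 6 arrays, and the Fli1 ratios of MPP arrays 2 and 3 lie far left of the first.

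The ratio was below 0 on all 3 arrays for 5 of 13 probes in MPPs (Tal1, Lmo2, Gata2, Fli1 and Hlf), against 14.7% of all probes. In HSCs this held for 3 of 13 (Tal1, Gfi1b and the downstream Runx1 probe), against 13.6%. Gfi1b was kept for testing through its WT HSC arrays alone, so its place in the HSC count is a description only. The mean ratio was below 0 for 9 of 13 in each population, with medians of -0.38 in MPPs and -0.31 in HSCs, while 50.4% and 50.3% of all probes were below 0. This count depended on the scaling. Median centring moved the median of all probes up by 0.22 in MPPs and 0.25 in HSCs, and relative to the shifted median 10 of 13 members were lower in MPPs and 6 of 13 in HSCs.

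The 2 probes of Erg, an ETS factor needed for adult stem cell maintenance, followed each other. The upstream probe gave ratios of -0.45, 0.71 and 0.03 in MPPs and -0.72, 1.24 and 1.12 in HSCs. The downstream probe, 143 bp away, gave -0.33, 0.77 and 0.24 in MPPs and -0.71, 1.36 and 1.47 in HSCs. They differed by at most 0.35. Each array thus gave its own Erg ratio, below 0 on replicate 1 of both populations and above 0 on the other arrays, and the spread between arrays exceeded that between probes. The mean effect was 0.32 ± 0.32 for the upstream and 0.47 ± 0.34 for the downstream probe (limma, adjusted p = 0.794 and 0.727).

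Runx1, the factor that opens the blood programme in the embryo, had probes 1372 bp apart. The upstream probe gave 0.96, -2.10 and -0.36 in MPPs and -0.98, -1.39 and 0.07 in HSCs. The downstream probe gave 0.89, -0.64 and -0.85 in MPPs and -0.64, -1.98 and -0.33 in HSCs. They shared a sign on 5 of 6 arrays and differed by up to 1.46, on MPP array 2. The Mllt3 probes also shared a sign on 5 of 6 arrays. The downstream one gave -0.10, 0.31 and -0.11 in MPPs and 0.13, 1.77 and -0.41 in HSCs. The upstream one gave -0.26, 0.12 and 0.88 in MPPs and 0.08, 0.43 and -2.95 in HSCs, 2.54 below the downstream probe on HSC array 3. The low KO/WT value of the upstream probe on that array had no counterpart of that size in the downstream probe.

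**Figure D4:**
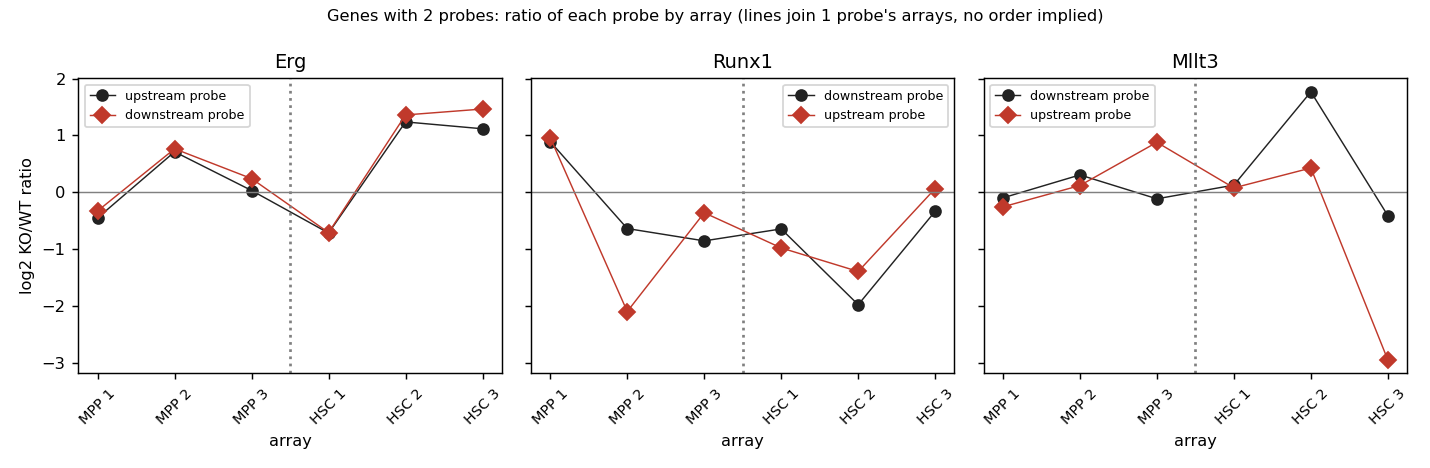
Log2 KO/WT ratio (vertical axis) of both probes of Erg, Runx1 and Mllt3 by array, MPP arrays left of the dotted line. The Erg probes lie within 0.35 of each other on every array, and the Mllt3 probes part by 2.54 on HSC array 3.

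For no member did the KO effect in MPPs minus that in HSCs pass the test. The MPP and HSC ratios did not separate for any of the 13 probes, 0 of 13 had an unadjusted p under 0.05 in limma (4.15% of all probes did), and adjusted p-values were 0.968 to 0.987. The background for separated arrays was 4.47% of all probes lower and 3.95% higher in MPPs. The difference of effects was -0.46 ± 0.61 for the downstream Mllt3 probe and -0.34 ± 0.45 for Gata2.

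Across the 12 channel levels, each centred on its dye, the members' mean profile correlated most with Gata2 (r = 0.93), Mllt3 (0.89) and Meis1 (0.86). Lmo2 (0.71), Hlf (0.67), Tal1 (0.55), Runx1 (0.53) and Gfi1b (0.41) followed, and Fli1 (0.09) and Erg (-0.01) did not share it. The mean profile includes each member and was not scaled, so members with larger differences between arrays weigh more in it. These correlations describe 6 arrays whose 2 channels share spots. Among 29125 other named features, with RIKEN clones, predicted genes and bare accessions passed over, the most similar were Epb41 (0.94), Mpdz (0.93), Grb10 (0.93), Parp12 (0.91) and Ccdc136 (0.91). Counting every feature, they ranked 1, 3, 4, 7 and 8.

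Genes that work with the members were taken from lists. Of 20 partners, proteins that bind a member, 0 passed limma's adjusted test in any of the 6 comparisons. At an unadjusted p under 0.05, 3 were lower and 1 higher in MPPs in the KO channel. Over 1 probe per name, 5.2% were lower and 6.31% higher at that threshold. Zfpm1, the Gata cofactor also named FOG1, was at -1.63 ± 0.39 in the KO channel and -1.36 ± 0.41 in the WT channel. Cbfb, which stabilizes Runx1 on DNA, was at 0.94 ± 0.29 in the KO channel and 1.00 ± 0.37 in the WT channel, the opposite sign. Its HSC levels were near background, with 2 of 3 KO and 1 of 3 WT arrays well above it, against 3 of 3 in MPPs in each channel, and it was kept through MPPs.

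Lyl1, the paralogue of Tal1 that also binds Lmo2, had a KO/WT mean of -1.19 ± 0.33 in HSCs (limma, adjusted p = 0.673), close to that of Tal1. In MPPs its mean was 0.04 ± 0.33, and its MPP ratios lay above all HSC ratios (difference 1.23 ± 0.47, adjusted p = 0.968). Of the 17 measured paralogues of 19 listed, 0 passed in any comparison. As a list they did not go the way of Lyl1 and Tal1 in HSCs, where 5 of 17 had a KO/WT mean below 0 and the median was 0.24. At an unadjusted p under 0.05 (limma), 1 was lower and 3 were higher in KO HSCs. Over 1 probe per name, 3.35% were lower and 3.82% higher at that threshold. Meis2, a paralogue of Meis1, was not well above background on any MPP array in the KO channel and was at least 3.17-fold lower there than in HSCs. It was kept for testing through other arrays than these, so this bound is a description only. Of 22 measured other stem cell regulators of 23 listed, 0 passed. Hhex, a homeobox factor of early lymphoid progenitors, was at 1.56 ± 0.31 in the KO channel and 2.17 ± 0.52 in the WT channel, against the direction of Mllt3 and Gata2.

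Of 17 measured genes of 19 described as direct targets of members, 1 passed. It passed between the populations in the KO channel, where 0.422% passed over 1 probe per name. Tgfbr3, the betaglycan co-receptor, averaged 7.39 in MPPs against 10.39 in HSCs in the KO channel (limma, adjusted p = 0.0310). This call was lost when any 1 of the 6 arrays was left out, with adjusted p from 0.0569 to 0.133. It was also lost with the replicate number as a block (limma, adjusted p = 0.121). With the row of the slide as a block, which leaves MPP array 1 alone against the HSC arrays, the Tgfbr3 difference was -2.50. Its difference was -0.65 ± 0.73 in the WT channel. Tie1, a receptor kinase of vessels and stem cells, was at -1.88 ± 0.30 (limma, adjusted p = 0.0864) in the KO channel and -1.56 ± 0.43 (adjusted p = 0.253) in the WT channel. The median of the list was -0.55 in the KO channel and -0.82 in the WT channel. Medians over 1 probe per name were -0.09 in each.

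Since Mllt3 carried the largest difference, the bases before its start sites are shown. RefSeq promoter sequences (GRCm38.p6, 250 bases before each start) matched 8 of the 10 members, with 14 start sites. The windows were searched on both strands for GATAA (GATA factors), CANNTG (the E-box bound by Tal1 and its partners), CCGGAA (ETS factors), TGTGGT (RUNX) and TGACAG (MEIS). The Mllt3 windows, on the minus strand, are chr4:88033408-88033657 (first) and chr4:87806324-87806573 (second), with matches in capitals.
Mllt3, first start: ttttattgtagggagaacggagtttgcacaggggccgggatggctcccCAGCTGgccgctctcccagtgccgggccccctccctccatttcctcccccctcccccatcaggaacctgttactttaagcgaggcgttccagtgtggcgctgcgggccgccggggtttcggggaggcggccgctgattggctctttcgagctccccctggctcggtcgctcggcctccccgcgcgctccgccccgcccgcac
Mllt3, second start: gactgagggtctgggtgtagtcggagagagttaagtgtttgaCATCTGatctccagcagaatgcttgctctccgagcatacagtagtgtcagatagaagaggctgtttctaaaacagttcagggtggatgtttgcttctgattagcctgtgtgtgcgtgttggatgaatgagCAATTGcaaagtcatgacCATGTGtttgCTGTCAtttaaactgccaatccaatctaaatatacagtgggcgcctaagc
The first window held 1 E-box and the second 3 E-boxes and 1 MEIS match, on its reverse strand, with no overlap between matches. Over the 14 windows, 7 held an E-box (66.2% of all 32851 windows), 3 a GATA match (22.6%), 3 an ETS match (12%), 1 a RUNX match (14%) and 2 a MEIS match (15.9%). Neither Gata2 window held any of the 5 motifs, which says only that these letters are absent from 250 bases.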

How the data were processed

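Members and gene lists were chosen with earlier results of these data known. Each deposited file held, per the file headers, the intensity of every spot and its local background in both channels (software version 10.7.3.1 of Agilent Feature Extraction, against 8.5.1.1 in the submitters' processing notes). The deposited log ratio was a log10 value, and the series table, per its values, held the same log10 numbers. Marks for spots well above background were deposited as scores of 0 or 1. Mean intensities were background-corrected with normexp (offset 50, limma 3.58.1, R 4.3.3). Log2 KO/WT ratios were loess-normalized within arrays, and levels were quantile-normalized within each dye. Control spots were left out. Probes, not genes, were tested by lmFit and eBayes, with a mean for each population, all 6 arrays in the fit and no block, adjusted by Benjamini-Hochberg over 44642 probes. A sign-flip test on 3 arrays cannot go below 0.25 (two-sided). P-values measure the spread between these samples, and the number of arrays limits precision. Named were all members, the Bmi1 probes, list genes with the smallest p (up to 3, or 4 passing) and the 5 features most like the members' mean profile. Some list genes are not reported here. Scripts were tested on simulated data.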

Additional observations from a re-analysis of the deposited data

How the results depend on the processing

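Over 1127 recomputed member values, 1037 kept sign and side of the threshold and 75 not past it changed sign. A further 12 lost the threshold, 3 gained it and 0 past it changed sign. Many of these values could not change sign. Leaving out an HSC array leaves the KO/WT mean in MPPs as it was, and the reverse holds for MPP arrays. The filters, 1 probe per name, the fit on 1 population and the replicate block leave every estimate as it was. The row block and row 1 alone share 1 estimate, which rests on MPP array 1 alone, so they are not separate checks. The count of 1037 is thus not a measure of robustness. The 12 were the KO-channel call of the downstream Mllt3 probe, lost on leaving out any array, with 75th percentile scaling, with the Agilent processed signal, without the filter on dim probes, with either block and in row 1 alone. The 3 came from the separate-channel model (Gata2 in the KO channel, both Mllt3 probes in the WT channel). For the upstream Mllt3 probe, kept through its HSC arrays, this remains a description only.

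With the row of the slide as a block, or in row 1 alone (an alternative chosen after seeing the data), only MPP array 1 stands for MPPs, so calls are not given. Over all probes, the 157 calls between populations in the KO channel became 85 without the filter and 0 with the replicate block. Leaving out 1 array gave 36 to 129. The 126 in the WT channel became 63 without the filter, 78 with the stricter filter, 346 in the separate-channel model and 0 with the replicate block. Leaving out 1 array gave 0 to 104. At an unadjusted p under 0.05 in limma, the replicate block left 4910 probes in the KO channel and 6158 in the WT channel. The mean KO effect had 0 calls, and 157 with median centring, of which 0 were lower. The causes were not tested. Deviations of same-numbered arrays from their population means correlated at -0.07 to 0.01 in ratios, -0.01 to 0.09 in KO levels and 0.04 to 0.16 in WT levels. The same-numbered MPP array was the best correlated for 0 HSC arrays in ratios, 2 in KO levels and 3 in WT levels. Whether the numbers pair the arrays was thus not settled, and the main fit has no replicate block. Gfi1b and the upstream Mllt3 probe were limited by signal over background.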
